A study of Mus musculus with 18 samples.

Results

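C-type lectins and Toll-like receptors include many pattern-recognition proteins, and 42 of the 21938 protein-coding genes in the annotation used here carry their symbols. They were taken by name: every GENCODE vM21 protein-coding gene whose symbol starts with Clec or Tlr followed by a digit, which gave 30 Clec and 12 Tlr genes. The study profiled 2 histone marks by ChIP-seq in cells sorted from bone marrow of adult C57BL6 mice, male by the study's methods, untreated as far as the labels say. Erythroblasts (ERY) and immature megakaryocytes (iMK) were both sorted as negative for the lymphoid markers CD45R, CD4, CD8 and IL7Ra and the myeloid markers Ly6g and CD11b. In addition ERY were Ter119+, CD44+ and of low forward scatter (FSCLow), and iMK were CD41+ and CD61+ but Sca1-, cKit- and Ter119-. Each cell type had 2 libraries for H3K4me3 and 2 for H3K27ac, so 8 peak lists were used and 10 input libraries were not. Replicate numbers are names in order of submission, and the labels do not say which animals gave which library, so every p-value given here rests on how far these libraries lie apart, which may be technical.

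H3K4me3 marks active promoters, and H3K27ac marks active promoters and enhancers. C-type lectin receptors bind sugars, lipids or protein ligands and signal through adaptors such as DAP12 and the kinase Syk, or through inhibitory motifs. Toll-like receptors sense microbial lipids, proteins and nucleic acids and signal through MyD88 or TRIF. Most members of both families are known from macrophages, dendritic cells and neutrophils, while Clec1b encodes CLEC-2, the podoplanin receptor that is abundant on megakaryocytes and platelets.

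The lists held 6275 to 13222 H3K4me3 peaks covering 9.02 to 33.8 Mb, and 21768 to 25750 H3K27ac peaks covering 42.9 to 77.0 Mb. Among the H3K4me3 lists, iMK replicate 2 was the longest (13222 peaks) and iMK replicate 1 held 7578. A gene at 0% is one with no listed peak, and the mark may still be there below the caller's threshold. The read depth behind the lists is unknown here. The erythroid label was borne out by its markers: all 12 erythroid marker promoters had an H3K27ac peak in both ERY libraries and 2 had one in each iMK library. The megakaryocyte markers were divided. Of 14, 2 and 4 promoters were called for H3K27ac in the 2 iMK libraries against 4 and 4 in ERY, and of the 11 whose locus could be tested as described below 3 passed as higher in iMK (Itgb3, P2ry12 and Selp), 4 as higher in ERY (Gp9, Gp1ba and Vwf among them) and 4 did not pass. The sorted antigens differed: Itgb3, which encodes CD61, had 5.82% and 8.73% of its locus covered in iMK and 0% in both ERY libraries (limma adjusted p = 0.0267), while Itga2b, which encodes CD41, had 0% in both iMK libraries and 16.8% and 3.8% in ERY and did not pass (0.210). ERY and iMK are used below as the labels of the libraries.

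Sequences of the promoters on which the comparisons turn are given first, as the 250 bases upstream of the RefSeq start site on GRCm38, the assembly that mm10 names, 5′ to 3′ on the gene's strand. The set holds Clec1b, whose promoter was called nowhere; Clec5a, Clec2i and Tlr6, called for both marks in both iMK libraries and in no ERY library; Tlr9, which had no CpG in this window; Clec4e, with more H3K27ac coverage in ERY; and Clec16a, called in all 8 libraries. Tlr6 and Clec2i each have a further RefSeq window, which is not printed. Capitals mark matches, on either strand, to 5 motifs. The GATA factor words were AGATAA as written, then TGATAA with another first letter, AGATAG with another last letter, and TGATAG with both changes. The ETS factor word is AGGAAG, the word of PU.1 and other ETS factors is GAGGAA, the C/EBP word is TTGCNNAA and the TATA box word is TATAAA. The words AGGAAG and GAGGAA overlap where GAGGAAG occurs, and a match is a description of letters, not a bound site.
Clec1b (chr6:129397047-129397296, plus strand): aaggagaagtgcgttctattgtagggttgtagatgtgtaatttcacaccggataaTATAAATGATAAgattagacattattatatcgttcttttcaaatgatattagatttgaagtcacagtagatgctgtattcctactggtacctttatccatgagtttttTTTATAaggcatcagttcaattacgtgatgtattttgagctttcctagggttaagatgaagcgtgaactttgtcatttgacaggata
Clec5a (chr6:40585806-40586055, minus strand): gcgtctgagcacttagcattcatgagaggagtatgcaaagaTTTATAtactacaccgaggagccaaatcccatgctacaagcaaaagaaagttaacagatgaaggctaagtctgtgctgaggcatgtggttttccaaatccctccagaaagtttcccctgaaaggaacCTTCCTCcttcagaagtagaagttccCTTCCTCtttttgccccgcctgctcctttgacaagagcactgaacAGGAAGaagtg
Clec2i (chr6:128887337-128887586, plus strand): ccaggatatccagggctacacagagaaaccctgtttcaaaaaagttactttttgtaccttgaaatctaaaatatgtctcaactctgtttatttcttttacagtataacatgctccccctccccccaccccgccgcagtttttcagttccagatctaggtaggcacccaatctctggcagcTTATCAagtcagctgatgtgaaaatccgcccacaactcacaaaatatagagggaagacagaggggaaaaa
Tlr6 (chr5:64959167-64959416, minus strand): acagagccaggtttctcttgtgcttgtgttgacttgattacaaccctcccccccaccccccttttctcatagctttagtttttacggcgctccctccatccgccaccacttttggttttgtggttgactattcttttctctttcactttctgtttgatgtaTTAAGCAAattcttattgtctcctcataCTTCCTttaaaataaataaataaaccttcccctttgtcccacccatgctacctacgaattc
Tlr9 (chr9:106222348-106222597, plus strand): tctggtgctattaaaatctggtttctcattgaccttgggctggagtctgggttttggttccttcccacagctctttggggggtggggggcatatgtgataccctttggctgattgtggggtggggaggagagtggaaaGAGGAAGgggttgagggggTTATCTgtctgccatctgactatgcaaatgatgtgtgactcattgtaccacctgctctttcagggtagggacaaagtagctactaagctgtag
Clec4e (chr6:123289872-123290121, minus strand): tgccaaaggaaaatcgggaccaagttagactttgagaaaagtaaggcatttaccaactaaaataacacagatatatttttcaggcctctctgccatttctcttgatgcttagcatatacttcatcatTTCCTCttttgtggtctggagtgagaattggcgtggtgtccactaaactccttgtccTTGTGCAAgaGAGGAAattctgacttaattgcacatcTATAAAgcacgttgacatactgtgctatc
Clec16a (chr16:10545089-10545338, plus strand): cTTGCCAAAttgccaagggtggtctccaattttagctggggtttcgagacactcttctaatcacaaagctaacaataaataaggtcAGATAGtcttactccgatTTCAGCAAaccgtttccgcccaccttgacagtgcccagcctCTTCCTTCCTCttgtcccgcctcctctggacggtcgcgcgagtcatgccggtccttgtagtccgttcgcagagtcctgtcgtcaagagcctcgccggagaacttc

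The Clec1b window held TATAAA directly followed by TGATAA and a further TATAAA on the other strand, with neither AGGAAG nor GAGGAA nor TTGCNNAA. The Clec5a window held AGGAAG 3 times and GAGGAA 2 times, and the Clec16a window held 15 CpG dinucleotides, against 3 in Clec5a and 0 in Tlr9. The promoter table matched 34 of the 42 genes with 38 start sites. Clec10a, Clec1a, Clec3a, Clec3b, Clec4a4, Clec4n, Tlr4 and Tlr7 had no entry. The Tlr6 window printed lies inside a Tlr6 transcript, under no exon. Its other window, chr5:64960049-64960298, lies at the start sites used for the promoter calls. That window held TATAAA 3 times and 6 CpG, with neither AGGAAG nor GAGGAA nor TTGCNNAA. AGGAAG was present in 20 of the 38 windows (52.6%), against 29.5% of all 32851 windows in the table. GAGGAA was present in 18 (47.4%, against 23.3%), TTGCNNAA in 7 (18.4%, against 9.56%), TATAAA in 9 (23.7%, against 12.4%) and a GATA word in 13 (34.2%, against 26.5%). AGGAAG was in 11 of the 20 windows of genes called in both iMK libraries and in 9 of the other 18. The median CpG content was 1.4 per 100 bases in the 38 windows and 2.4 over the table. Windows of the same gene can overlap, as in Clec4a3 and Clec2i, so the same site can count in more than 1 window.

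In ERY both families had lower shares of called promoters than all protein-coding genes, and fewer calls than in iMK. A promoter is any annotated start site with 1 kb on each side, called where a peak shares at least 1 base with it. H3K27ac peaks touched 5 and 5 of the 42 promoters in the 2 ERY libraries (11.9% each, against 41.7% and 39.4% of all protein-coding genes) and 23 and 26 in the 2 iMK libraries (54.8% and 61.9%, against 47.6% and 49%). No Tlr promoter was called for H3K27ac in ERY, while 10 and 9 of 12 were called in the 2 iMK libraries. The Clec promoters numbered 5 and 5 of 30 in ERY (16.7% each). In iMK they numbered 13 and 17 (43.3% and 56.7%), below and above the 47.6% and 49% of all genes.

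**Figure D1:**
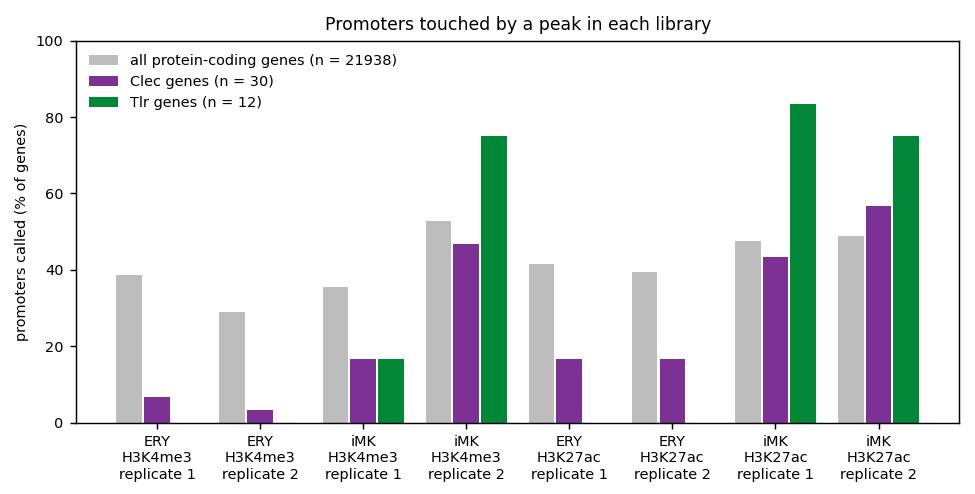
Percent of promoters touched by a peak in each of the 8 libraries (y axis, % of genes) for all 21938 protein-coding genes in grey, the 30 Clec genes in purple and the 12 Tlr genes in green. The green bars are at 0 in the 4 ERY libraries and at 83.3% and 75% in the 2 iMK H3K27ac libraries.

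By replicated calls, 16 of the 42 promoters carried H3K27ac in both iMK libraries and in neither ERY library (iMK-only), against 8.56% of all protein-coding genes in that class. None was ERY-only (2.17% of all genes), 4 were shared by all 4 libraries (36% of all genes) and 13 had no call (47.2% of all genes). The other 9 were called without replication, and no share over all genes is given for them. The 16 were 8 Tlr genes, Tlr2, Tlr4, Tlr5, Tlr6, Tlr7, Tlr8, Tlr9 and Tlr13, and 8 Clec genes, Clec4a1, Clec4a2, Clec4a3, Clec4b1, Clec2i, Clec5a, Clec10a and Clec12a. The shared 4 were Clec16a, Clec2d, Clec4d and Clec4e. With only peaks at or above the median fold of their own list, the iMK-only count was 7 and the shared count 1. This setting shortens the lists for all genes, and no share over all genes is given beside these 2 counts.

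Coverage of the locus, the percent of the gene with 10 kb on each side that lies under peaks, was compared with limma over all genes with a peak in at least 1 of the 4 libraries of a mark. H3K27ac covered 38 of the 42 loci in some library (90.5%, against 65.9% of all protein-coding genes). Of these, 16 were higher in iMK at an adjusted p (limma, Benjamini-Hochberg over 14467 genes) under 0.05, where 17.2% of all tested genes were higher in iMK, and 1 was higher in ERY, where 22% of all tested genes were. Except at Clec2e, neither ERY library had a peak at the loci of those 16. The spread behind their p-values is that of the iMK libraries and the variance that limma shares across genes. The median difference, ERY minus iMK, was −6.67 percentage points over the 38 and 0.599 over all tested genes. In 27 of the 38 both iMK libraries were above both ERY libraries (31.3% of all tested genes), and in 2 both ERY libraries were above (41.1% of all tested genes). The count of 16 became 4 without ERY replicate 1 and 4 without ERY replicate 2, these being Clec2i, Tlr6, Tlr7 and Tlr9 both times, and 27 without iMK replicate 1 and 26 without iMK replicate 2. Over all tested genes the shares were 5.29%, 5.24%, 22.8% and 19.9% in that order. With 1 iMK library left out, the spread within groups comes from the ERY libraries alone. Where neither of these has a peak that spread is nil, so passing there is no support for a difference. Clec3a, Clec3b, Clec4f and Clec14a had no H3K27ac peak in any library.

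**Figure D2:**
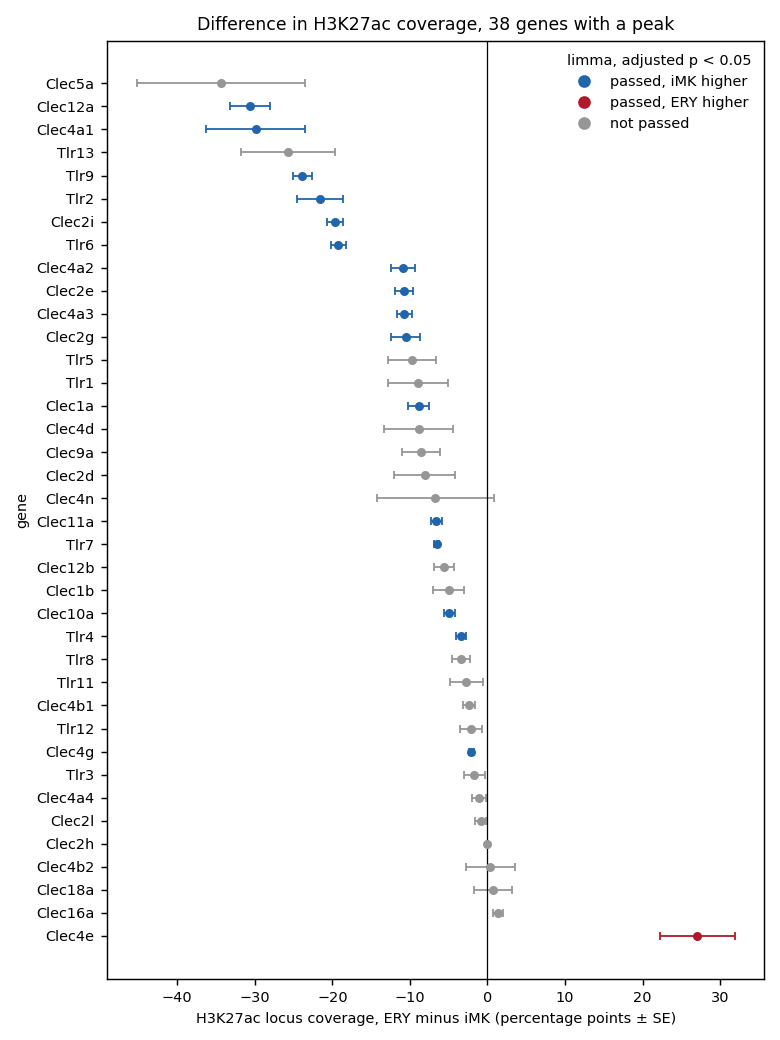
Difference in H3K27ac locus coverage, ERY minus iMK, in percentage points with its limma SE (x axis) for the 38 genes with a peak (y axis), 2 libraries a group. Blue points passed as higher in iMK (16 genes), the red point is Clec4e (27.1), and grey points did not pass.

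Markers of other cell types were read in the same libraries. Of 10 neutrophil markers, 6 and 9 promoters carried H3K27ac in the 2 iMK libraries against 1 and 0 in ERY, and their summed locus coverage was 153 and 378 percentage points in iMK against 2.30 and 0 in ERY. All 10 had a locus peak in iMK replicate 2, while Mmp9 and Mpo were at 0 in iMK replicate 1, and 3 of the 10 passed as higher in iMK. Of 11 monocyte and macrophage markers, 7 and 8 promoters were called in iMK against 1 and 2 in ERY, with summed coverage of 168 and 200 percentage points in iMK and 99.9 and 105 in ERY. Of the 9 with a peak, 4 passed as higher in iMK (Cd68, Adgre1, Lyz2 and Itgam), Ctss passed as higher in ERY and 4 did not pass. C1qa and Vcam1 were at 0 in all 4 H3K27ac libraries. Itgam, which encodes the CD11b antigen that the sort excluded, had 10.3% and 17.1% of its locus covered in iMK and 0% in ERY. Dendritic cell markers (6 genes) had 2 and 3 promoters called in iMK and 1 and 1 in ERY, B cell markers (5 genes) 1 and 1 against 0 and 0, T and NK cell markers (5 genes) 0 and 1 against 0 and 0, and mast cell, basophil and eosinophil markers (6 genes) none in any of the 4. The part of other cell types in the differences between the libraries was not tested, and fewer cells of a type and less signal per cell cannot be told apart in these bulk samples.

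Clec1b, the platelet receptor, had no promoter call in any of the 8 libraries. Its gene lies at chr6:129397297-129409335 on the plus strand. H3K27ac covered 0% and 0% of its locus in ERY and 2.5% and 7.49% in iMK, a difference of −4.99 ± 2.0 (SE) percentage points that did not pass (limma adjusted p = 0.143). Both iMK libraries were above both ERY libraries. With 1 iMK library left out, the only spread within a group is that of ERY, where neither library has a peak. Such a fit cannot decide. H3K4me3 covered 0%, 0%, 0% and 3.75% in ERY replicates 1 and 2 and iMK replicates 1 and 2.

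All of the Clec1b coverage came from 1 place, beyond the 3′ end of its coding transcripts. The H3K27ac peaks were chr6:129406601-129407400 in iMK replicate 1 (fold of ChIP over control 7.51) and chr6:129405801-129408200 in iMK replicate 2 (fold 6.99), and the H3K4me3 peak of iMK replicate 2 was chr6:129406601-129407800 (fold 1.96). The protein-coding transcripts of Clec1b end at 129405333, and the peaks lie under a further transcript annotated as a retained intron. The replicate 1 peak centres 1.86 kb upstream of the start site of Clec9a, a dendritic cell receptor for dead cells, and the replicate 2 peak of H3K27ac reaches into the Clec9a promoter window. Clec9a is named here for its position, after its values were seen. The central 250 bases of the stretch common to the 3 peaks hold GAGGAA 2 times and no GATA word. Of promoter windows of that length, 23.3% hold GAGGAA at least 1 time and 26.5% hold a GATA word, so most hold no GATA word.
Clec1b intragenic peak (chr6:129406876-129407125, plus strand): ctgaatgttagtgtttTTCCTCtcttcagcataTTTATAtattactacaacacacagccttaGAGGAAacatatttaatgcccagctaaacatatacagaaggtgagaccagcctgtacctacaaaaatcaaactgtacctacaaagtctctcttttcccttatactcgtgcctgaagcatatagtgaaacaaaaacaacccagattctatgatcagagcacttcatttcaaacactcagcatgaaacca

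**Figure D3:**
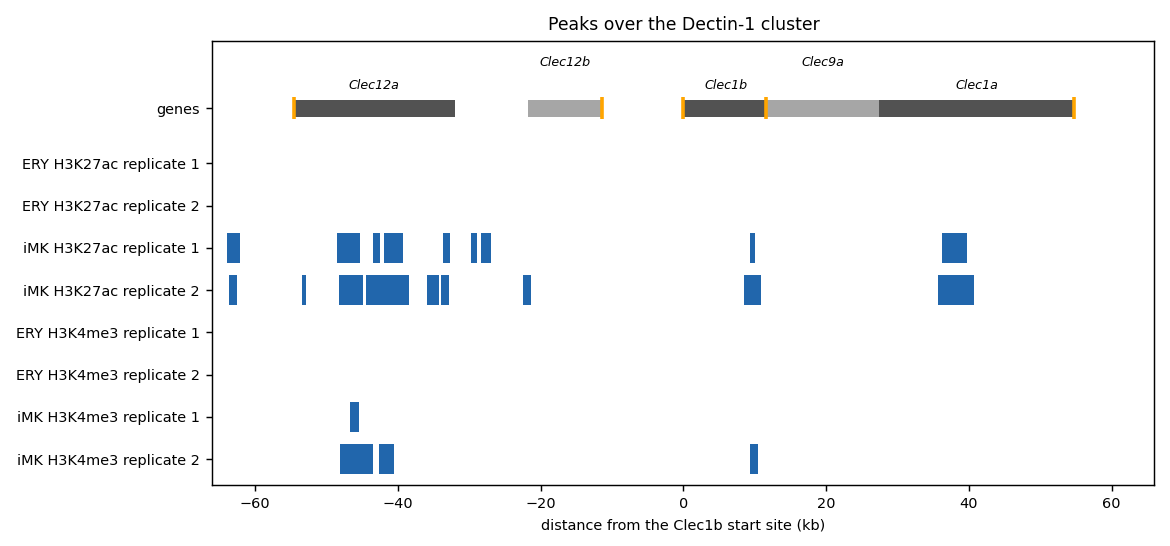
Peaks of the 8 libraries over the Dectin-1 cluster (rows, ERY red and iMK blue), by distance in kb from the Clec1b start site, with genes as grey bars and their 5′ ends in orange. No ERY library has a peak here, and no library has one at the Clec1b start.

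The remaining genes of the Dectin-1 cluster, a 109 kb stretch of chromosome 6 with 5 of the 42 genes, had peaks in iMK only. Clec12a, an inhibitory receptor that recognises uric acid crystals, had H3K27ac over 27.7% and 33.6% of its locus in iMK and 0% in both ERY libraries, a difference of −30.6 ± 2.61 (SE) percentage points (limma adjusted p = 0.00916). It was also 1 of the 5 genes whose promoter carried H3K4me3 in both iMK libraries and neither ERY library. Clec1a, a receptor known from endothelium and myeloid cells, had 7.2% and 10.6% in iMK and 0% in ERY (−8.89 ± 1.41 (SE), adjusted p = 0.0245), with no promoter call. Its peaks lay inside the gene, away from its start site. The Clec12a call was lost with peaks at or above the median fold (adjusted p = 0.439), with the gene body alone (0.0558) and without ERY replicate 1 (0.0905) and ERY replicate 2 (0.0840). The Clec1a call was lost with no filter on genes without peaks (0.0526), without ERY replicate 1 (0.172) and without ERY replicate 2 (0.166).

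The Dectin-2 cluster, 368 kb of chromosome 6 with 9 of the 42 genes and no other protein-coding gene between, was divided. At its Clec4a1 end, H3K27ac peaks were present only in iMK. Clec4a1 had 22.0% and 37.8% of its locus covered in iMK and 0% in ERY (−29.9 ± 6.40 (SE) percentage points, limma adjusted p = 0.0439). Clec4a2, which encodes the inhibitory receptor DCIR, had 8.99% and 12.8% against 0% and 0% (−10.9 ± 1.61 (SE), adjusted p = 0.0215), and Clec4a3 had 9.64% and 11.8% against 0% and 0% (−10.7 ± 0.999 (SE), adjusted p = 0.0101). These 3 calls were lost without ERY replicate 1 and without ERY replicate 2, and those of Clec4a1 and Clec4a2 also with peaks at or above the median fold (adjusted p = 0.439 each). The Clec4a1 call was also lost with no filter and with limma run without its trend. Clec4b1 was iMK-only at its promoter with 1.44% and 3.37% in iMK, and did not pass (adjusted p = 0.0977). The Clec4a genes are close paralogs. The study's general methods keep reads that map to several copies, and whether these lists did so is not known. The split of signal between the Clec4a genes is therefore uncertain.

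At the opposite end of the cluster ERY peaks appeared. Clec4e encodes Mincle, which recognises mycobacterial glycolipids, and was the 1 gene higher in ERY: 34.9% and 44.2% of its locus in ERY against 9.26% and 15.7% in iMK, a difference of 27.1 ± 4.78 (SE) percentage points (limma adjusted p = 0.0305). The call was lost in 10 of 13 alternatives, the adjusted p ranging from 0.0297 to 0.474, and without each of the 4 libraries in turn. The promoter itself was covered in all 4 H3K27ac libraries. The groups differed upstream of it: the iMK peaks ended at 123291000, while ERY peaks lay at chr6:123291401-123296000 (fold 6.32) in replicate 1 and at chr6:123288401-123297400 (fold 6.10) in replicate 2. The central 250 bases of the 4600 bases found in both ERY libraries and in neither iMK library are given below, and hold GAGGAA 1 time and no GATA word. The whole 4600 bases hold 15 GATA words, 5 GAGGAA, 3 TTGCNNAA, 1 AGGAAG and 5 TATAAA, and no share over stretches of this length was computed.
Clec4e upstream ERY region (chr6:123293576-123293825, plus strand): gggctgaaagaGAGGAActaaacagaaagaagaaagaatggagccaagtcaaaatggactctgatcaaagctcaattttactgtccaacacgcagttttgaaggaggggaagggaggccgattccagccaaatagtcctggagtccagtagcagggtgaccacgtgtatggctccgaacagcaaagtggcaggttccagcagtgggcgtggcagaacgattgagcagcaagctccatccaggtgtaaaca

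Clec4d, which encodes the related receptor MCL, had 18.1% and 28.4% of its locus covered in ERY and 31.4% and 32.8% in iMK, and its promoter was called for H3K27ac in all 4 libraries. The difference of −8.88 ± 4.48 (SE) percentage points did not pass (limma adjusted p = 0.210). Its sign turned with the gene body alone (4.64) and with 50 kb flanks (4.68). The other 3 genes of the cluster, all with an H3K27ac peak in some library and none passing, ranged from 0% to 17.8% in ERY and from 0% to 18.8% in iMK. In the flank of Clec4b2, named after its values were seen, chr6:123206601-123209400 was 1 of 2 whole regions, after joining overlapping peaks of the 4 libraries, that were found in both ERY libraries and in neither iMK library. The stretch upstream of Clec4e joins a region that iMK peaks share.

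**Figure D4:**
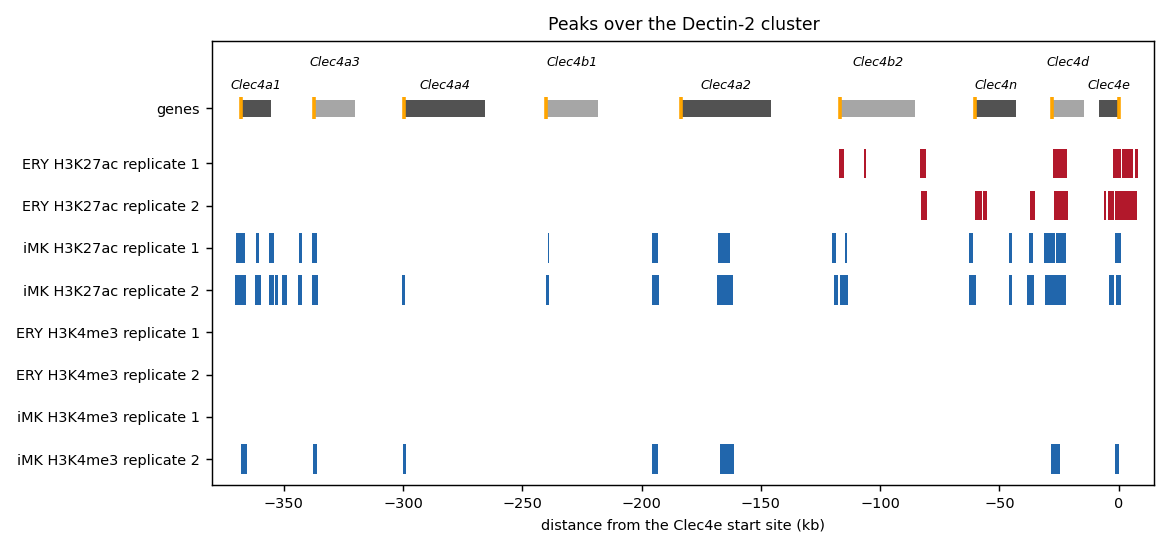
Peaks of the 8 libraries over the Dectin-2 cluster (rows, ERY red and iMK blue), by distance in kb from the Clec4e start site, with genes as grey bars and their 5′ ends in orange. Red bars appear from Clec4b2 to Clec4e and extend beyond the Clec4e start, where the blue bars end.

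Clec2 genes encode ligands and relatives of NK cell receptors of the NKR-P1 family, and 5 of the 6 lie in 524 kb of chromosome 6 among Klrb1 genes. Clec2i had H3K27ac over 20.3% and 19.0% of its locus in iMK and 0% in both ERY libraries (−19.6 ± 1.03 (SE) percentage points, limma adjusted p = 0.00650). The call was lost only with peaks at or above the median fold (0.439). Its fits without an iMK library cannot decide, as neither ERY library has a peak there. Clec2e had 10.4% and 12.4% in iMK against 1.38% and 0% in ERY (−10.7 ± 1.16 (SE), adjusted p = 0.0126) without any promoter call, and its difference turned to 0.692 with peaks at or above the median fold. Clec2g had 8.25% and 12.8% against 0% and 0% (−10.5 ± 1.88 (SE), adjusted p = 0.0310). The Clec2e call was lost without each of the 4 libraries in turn and with equal numbers of top peaks. The Clec2g call was lost without ERY replicate 1 and without ERY replicate 2. It was also lost with the gene body alone, with no filter and with peaks at or above the median fold. Over all alternatives the adjusted p reached 0.671 for Clec2e and 0.447 for Clec2g. Clec2d was marked in both cell types: 13.1% and 13.9% in ERY and 17% and 26.2% in iMK, and the difference did not pass (−8.10 ± 3.91 (SE), adjusted p = 0.196). It passed after quantile normalization (0.0196).

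The largest H3K27ac difference among the 38 genes was that of Clec5a, which encodes a DAP12-coupled receptor of monocytes and neutrophils, and it did not pass. Clec5a had 20.8% and 47.9% of its locus covered in iMK and 0% in both ERY libraries (−34.3 ± 10.8 (SE) percentage points, limma adjusted p = 0.0930). The 2 iMK libraries lay far apart. Clec10a, a galactose-binding macrophage lectin, had 4.04% and 5.77% in iMK and 0% in ERY (−4.91 ± 0.729 (SE), adjusted p = 0.0217). Clec11a, a secreted growth factor for haematopoietic and bone cells, had 7.43% and 5.78% against 0% and 0% (−6.61 ± 0.728 (SE), adjusted p = 0.0131). Clec4g, a lectin known from liver sinusoidal endothelium, had 1.79% and 2.38% against 0% and 0% (−2.08 ± 0.280 (SE), adjusted p = 0.0184). These 3 calls were lost without ERY replicate 1 and without ERY replicate 2. The Clec4g call was also lost with peaks at or above the median fold, after quantile normalization and with limma run without its trend. Clec16a, a broadly expressed gene with a role in endosomes and autophagy, was called at its promoter in all 8 libraries. Its H3K27ac coverage of 3.64% and 2.28% in ERY and 1.37% and 1.91% in iMK did not differ beyond the test's threshold (1.32 ± 0.628 (SE), adjusted p = 0.191). The other joined region found in both ERY libraries and in neither iMK library, chr16:10730001-10734600, lies inside Clec16a and touches an exon.

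All 12 Tlr genes had H3K27ac in their locus in at least 1 iMK library, and 5 passed as higher in iMK. Among the 5 cell surface receptors 3 passed. Tlr2, which senses bacterial lipopeptides together with Tlr1 or Tlr6, had 18.0% and 25.1% of its locus covered in iMK and 0% in both ERY libraries (−21.6 ± 2.96 (SE) percentage points, limma adjusted p = 0.0190), with promoter peaks of fold 11.7 and 11.1. Tlr6 had 18.9% and 19.6% against 0% and 0% (−19.2 ± 0.927 (SE), adjusted p = 0.00650), and its promoter peaks had folds of 11.5 and 26.0. Tlr4, the lipopolysaccharide receptor, had 2.61% and 4.24% against 0% and 0% (−3.42 ± 0.674 (SE), adjusted p = 0.0373). Tlr5, the flagellin receptor, had 5.85% and 13.6% against 0% and 0% and did not pass (adjusted p = 0.0953). Tlr1, named to complete the group, had 4.15% and 13.8% against 0% and 0% and did not pass (adjusted p = 0.162). The Tlr2 and Tlr4 calls were lost without ERY replicate 1 and without ERY replicate 2. The Tlr2 call was also lost with peaks at or above the median fold. The Tlr4 call was also lost with the gene body alone, with no filter and with limma run without its trend. The Tlr6 call was kept under all 13 alternatives. Among these, the fits without an iMK library take their spread from ERY libraries that are both at 0%, and cannot decide. Part of the Tlr6 coverage is a flank peak at the promoter of Fam114a1, without which the call also held.

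Of the 7 nucleic acid sensors and other receptors known from endosomes, 2 passed. Tlr9, which senses unmethylated CpG DNA, had 24.7% and 23.1% of its locus covered by H3K27ac in iMK and 0% in both ERY libraries (−23.9 ± 1.20 (SE) percentage points, limma adjusted p = 0.00650), with promoter folds of 10.3 and 5.84. This call was lost only with equal numbers of top peaks (0.0782). Tlr7, a sensor of single-stranded RNA, had 6.57% and 6.57% against 0% and 0% (−6.57 ± 0.317 (SE), adjusted p = 0.00650) and kept its call under all 13 alternatives. The SD was 0 in both groups, so this SE comes from the variance that limma shares across genes. For the same reason, the alternatives that leave out 1 library cannot decide for Tlr7. The equal iMK values came from different peaks. Replicate 1 had chrX:167318601-167319600 in an intron and chrX:167328401-167330400 at the promoter, and replicate 2 had chrX:167328201-167331200 alone. Tlr8, the neighbour of Tlr7, had 1.92% and 4.80% against 0% and 0% and did not pass (adjusted p = 0.110). Tlr13, a sensor of bacterial ribosomal RNA, had 18.2% and 33.3% against 0% and 0% and did not pass (−25.7 ± 6.05 (SE), adjusted p = 0.0527). With an iMK library left out, the fits of Tlr8, Tlr9 and Tlr13 take their spread from ERY libraries that are both at 0%, and cannot decide. The other 3, Tlr3, Tlr11 and Tlr12, had at most 5.44% in any library and are named here only to complete the family. A flank peak of Tlr12 lies at the promoter of Zscan20.

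**Figure D5:**
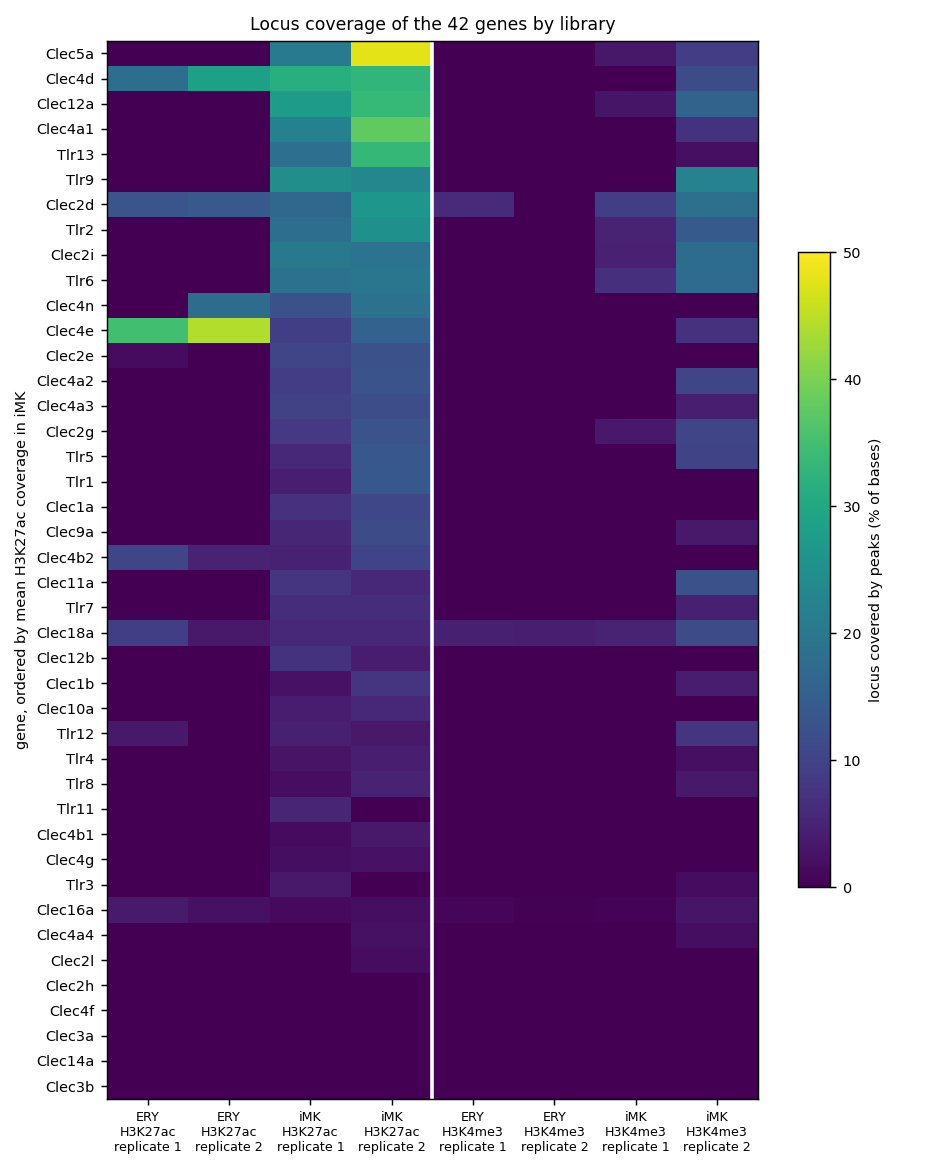
Percent of each locus under peaks (colour, 0 to 50% of bases) for the 42 genes (rows, ordered by mean H3K27ac coverage in iMK) in the 8 libraries (columns, H3K27ac left of the white line and H3K4me3 right). In Clec4e both ERY H3K27ac columns (34.9% and 44.2%) exceed both iMK columns (9.26% and 15.7%), as they do at a lower level in Clec16a.

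H3K4me3 also touched more of these promoters in iMK than in ERY, mostly in 1 of the 2 iMK libraries. Peaks touched 2 and 1 of the 42 promoters in ERY (38.6% and 28.8% of all protein-coding genes were touched) and 7 and 23 in iMK (35.5% and 52.8% of all genes). Of the promoters, 5 were iMK-only (4.89% of all protein-coding genes were): Clec2i, Clec5a, Clec12a, Tlr2 and Tlr6, all of them iMK-only for H3K27ac also. None was ERY-only (0.378% of all genes), Clec16a was shared (24.6% of all genes shared) and 19 had no call (46.3%). The other 17 fell in none of these classes, and no share over all genes is given for them. Clec2d was among them, called in both iMK libraries and in ERY replicate 1. The iMK-only count rested on iMK replicate 1: without it the count was 21, and 14.9% of all genes were iMK-only. In iMK, 7 of the 20 promoters with H3K27ac in both libraries had H3K4me3 in both (35%), where 73.9% of all such promoters had. In ERY it was 1 of 4 (25%), against 72.3%.

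No locus passed for H3K4me3 in either direction. H3K4me3 covered 26 of the 42 loci in some library (61.9%, against 61.8% of all protein-coding genes). Of these 26, limma called 0 at an adjusted p under 0.05, as it called 0 of all 13561 tested genes (0% in each direction). An unadjusted p under 0.05 was found for 3. The iMK mean was above the ERY mean in 26 of 26, and both iMK libraries were above both ERY libraries in 8, where 20.4% of all tested genes were, and the reverse held in 0 (2.71%). Over all tested genes the iMK mean was above in 11327 of 13561. After quantile normalization of the 4 libraries it was above in 21 of 26 and in 6215 of 13561, and the median difference over all tested genes moved from −1.66 to 0.129 percentage points. Without iMK replicate 1 the median difference was −7.54 percentage points over the 26 and −3.81 over all tested genes. Without iMK replicate 2 it was −3.41 over the 9 with a peak and 0.367 over all tested genes. Tests with 1 iMK library take their spread from ERY alone, where most of these loci are at 0% in both libraries. Tlr6 had the largest difference, 6.76% and 17.4% in iMK against 0% and 0% in ERY (−12.1 ± 4.64 (SE) percentage points, limma adjusted p = 0.772), and Clec2i followed with 4.58% and 17.7% against 0% and 0% (−11.1 ± 4.81 (SE), adjusted p = 0.772). Tlr9 had 0% and 22.2% in iMK. Tlr7, Tlr8 and Tlr13 lie on the X chromosome and had H3K4me3 in iMK replicate 2 alone, the list with 350 X-linked peaks against 39 in iMK replicate 1, 177 in ERY replicate 1 and 31 in ERY replicate 2.

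Joined over the 4 libraries of a mark, peaks in the loci of the 42 genes made 89 H3K27ac regions, of which 44 were iMK-only, 2 ERY-only, 6 shared and 37 unreplicated. The unreplicated class holds every other pattern, including regions found in both iMK libraries and in 1 ERY library. Over the loci of all protein-coding genes, 19.9% of 34498 regions joined in the same way were iMK-only, 16.3% ERY-only, 22.4% shared and 41.4% unreplicated. Of the 44, 21 were at a promoter of the 42 genes and 22 at no promoter. H3K4me3 made 34 regions, 7 iMK-only, 0 ERY-only, 3 shared and 24 unreplicated, where 8.32%, 1.5%, 34.1% and 56.1% of 13305 regions over all loci were, and 5 of the 34 were at no promoter. Neighbouring loci overlap, and 7 of the 89 H3K27ac regions counted for more than 1 gene.

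The adaptors and signalling partners of the receptors were described from lists of other genes. Of 29 Toll-like receptor accessory, adaptor and signalling genes, all tested for H3K27ac, 11 passed as higher in iMK and 2 as higher in ERY, with a median difference of −4.34 percentage points, where 17.2% and 22% of all tested genes passed and their median was 0.599. Irf5, a transcription factor downstream of MyD88, had 26.7% and 26.7% in iMK against 0% and 0% in ERY (limma adjusted p = 0.00650), and Unc93b1, the chaperone of the endosomal receptors, 23.5% and 21.7% against 0% and 0% (0.00650). Lbp, which hands lipopolysaccharide on, had 16.4% and 20.7% against 0% and 0% (0.0117), and Cd180, a Toll-like receptor relative, 11.6% and 14.8% against 0% and 0% (0.0130). Tab1, a subunit of the TAK1 kinase complex, was higher in ERY with 37.5% and 34.6% against 4.94% and 4.53% (0.00650), as was Cd36, a scavenger receptor, with 16.8% and 18.6% against 0.944% and 2.52% (0.00848). For H3K4me3 0 of the 29 passed.

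Of 23 C-type lectin ligand, adaptor and signalling genes, 22 were tested for H3K27ac, 15 passed as higher in iMK and 2 as higher in ERY, with a median difference of −13.9 percentage points, beside the same 17.2%, 22% and 0.599 over all tested genes. Tyrobp, which encodes the adaptor DAP12, had 57.1% and 56.2% in iMK against 0% and 0% in ERY (limma adjusted p = 0.00650), and its neighbour Hcst, which encodes DAP10 and whose locus overlaps that of Tyrobp, 61.4% and 60.5% against 0% and 0% (0.00650). Prkcd, a protein kinase C, had 59.4% and 61.8% against 4.33% and 1.18% (0.00650), and Syk, the kinase that CLEC-2 and Dectin-1 engage, 29.7% and 40.0% against 1.64% and 0% (0.0167). Inpp5d, which encodes the phosphatase SHIP1, was higher in ERY with 66.9% and 60.7% against 17.6% and 20.5% (0.00813), as was Malt1 with 13.8% and 12.3% against 4.99% and 4.40% (0.0162). Pdpn, the CLEC-2 ligand, named after its values were seen, had 7.67% and 13.0% in iMK against 0% and 0% (0.0429). For H3K4me3 0 of the 22 tested passed.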

How the data were processed

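Of 18 samples, the 8 ChIP libraries were used and the 10 inputs (4 ERY, 6 iMK) were not. The authors deposited 1 list of broad peaks per library on mm10, each peak with a fold ratio of ChIP over control, a p-value and a q-value, all q-values under 0.01 and edges in steps of 200 bp. The submitters' processing notes name Bowtie 1.0.0 and SICER 1.1. The study's methods describe MACS for its ChIP-seq in general and keep reads that map to several places. Read depth is unknown, so no counting interval is given.

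Promoters (start site with 1 kb on each side, overlap of at least 1 bp) were classed by calls in both libraries of a cell type. Locus coverage (gene with 10 kb flanks) was compared per mark with limma 3.58.1 (R 4.3.3), trend on, over genes with a peak in at least 1 of 4 libraries, Benjamini-Hochberg threshold 0.05. With 2 libraries a group an exact permutation test cannot go below 0.333. The code was tested on simulated data. Named genes were Clec1b, those with a promoter called in both libraries of a cell type for either mark, those passing limma, and from each other list up to 4 passing genes a direction by size of difference for H3K27ac. Other genes were given by counts, or named after their values were seen. A gene that the rule would name is not reported here. The genes and lists were chosen with earlier results of these data known. Alternatives changed flank, window, overlap, filter, peak threshold, scaling, trend or left out 1 library. Leaving out peaks at promoters of other genes was added after seeing the data. Sequences and start windows came from RefSeq on GRCm38, with Python 3.11.15.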

Additional observations from a re-analysis of the deposited data

How the results depend on the processing

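The count of genes higher in iMK for H3K27ac, 16 as reported, was 26 with 50 kb flanks and 7 with peaks at or above the median fold, and leaving out 1 library gave 4 to 27. These counts are not all of the same genes. For the ERY direction, 10.8% to 27.8% of all tested genes passed across the settings that kept all libraries. The 1 gene higher in ERY became 0 with the gene body alone, with 50 kb flanks, with no filter and with equal numbers of top peaks, and leaving out 1 library gave 0 to 1. Where that count stayed at 1 the gene was Clec4b2 with peaks at or above the median fold, Clec16a after quantile normalization, Clec18a without ERY replicate 2, and Clec4e on the arcsine scale, without the trend and without peaks at promoters of other genes. The 16 iMK-only and 4 shared H3K27ac promoters were 7 and 1 with peaks at or above the median fold. For H3K4me3, 0 genes higher in iMK became 1 (Tlr6) after quantile normalization and 0 to 24 with 1 library left out. The 5 iMK-only H3K4me3 promoters were 1 with equal numbers of top peaks, 0 at or above the median fold and 5 to 21 with 1 library left out. The 1 shared H3K4me3 promoter became 2 with a window of 2.5 kb, 0 with equal numbers of top peaks, 0 at or above the median fold and 1 to 2 with 1 library left out. No share over all genes is given beside the promoter counts of this paragraph, and settings that drop peaks do so for all genes.

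Differences that changed sign were those of H3K4me3 after quantile normalization at Clec16a (0.689 percentage points), Tlr13 (0.0745) and Tlr4 (0.0778), and those of H3K27ac at Clec2e with peaks at or above the median fold (0.692) and at Clec4d with the gene body alone (4.64) and 50 kb flanks (4.68). The cause was not tested. Of the values for single genes under alternatives, 453 kept direction and side of the threshold, 56 gained and 56 lost a call. Where 1 library was left out, the lone library of its group was assumed to vary like the other group. At loci without a peak in either library of that other group the spread is nil, and a call gained there is no support for a difference. No paired analysis was possible because the labels give the replicates no numbers that pair ERY with iMK.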

Other observations

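Lectin-like genes of the same families or clusters without a Clec symbol were also described. Of 26, 18 were tested for H3K27ac, 11 passed as higher in iMK and 0 as higher in ERY, with a median difference of −5.59 percentage points, where 17.2% and 22% of all tested genes passed and their median was 0.599. Cd93 had 29.0% and 24.5% of its locus covered in iMK and 0% in both ERY libraries (limma adjusted p = 0.00816), Thbd, which encodes thrombomodulin, 21.9% and 30.4% against 0% and 0% (0.0184), and Klrb1f, an NKR-P1 receptor gene, 22.5% and 24.4% against 0% and 0% (0.00650). For H3K4me3 0 of 14 tested passed.

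Clec7a, which encodes Dectin-1, is annotated as a polymorphic pseudogene and lay outside the 42 genes. Its H3K27ac coverage was 0% and 0% in ERY and 8.34% and 9.62% in iMK, and its H3K4me3 coverage was 0% in both ERY libraries, 0% in iMK replicate 1 and 10.9% in iMK replicate 2.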
